A study of Mus musculus with 18 samples.

Results

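The Hox genes encode homeodomain transcription factors that lie in 4 clusters, and 32 of them were among the 20703 genes with expression values in E14 mouse embryonic stem cells (mESCs). Members were taken by symbol, Hoxa, Hoxb, Hoxc or Hoxd followed by a number, without antisense transcripts. They comprised 9 of 11 annotated Hoxa genes on chromosome 6, all 10 Hoxb genes on chromosome 11, 7 of 9 Hoxc genes on chromosome 15 and 6 of 9 Hoxd genes on chromosome 2. Hoxa2, Hoxa6, Hoxc11, Hoxc12, Hoxd3, Hoxd4 and Hoxd12 were not analysed here. By paralog group, the number in the symbol, 9 members were anterior (groups 1 to 4), 10 central (5 to 8) and 13 posterior (9 to 13).

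Poly-A RNA was sequenced from WT cells and from the Nsd1-KO lines KO-1 and KO-2 on day 0, 2 and 4, with 2 libraries for each line and day and 18 in all. Nsd1 encodes a histone methyltransferase that acts on H3K36. These 2 KO lines were clones grown from single cells in which exon 5 had been deleted on both alleles, in E14 cells that already carried a 3×Flag cassette at the end of Nsd1, and whether the WT cells of the RNA-seq carried that cassette is not given in the sources used here. Day 0 cells were kept with leukemia inhibitory factor (LIF), on mitotically inactivated embryonic fibroblast feeders or on gelatin, and days 2 and 4 count from the removal of LIF and feeders. The labels do not divide the WT libraries by line or name their line. A difference between genotypes thus cannot be told apart from a difference between the KO clones and the WT cells they are set against.

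Nsd1 itself, as a check of the labels, had 3374 and 3660 normalized counts in the WT libraries of day 0 and 635 to 837 in the 4 KO libraries. At day 2 the values were 2773 and 3344 against 854 to 1024, and at day 4 they were 2425 and 2111 against 575 to 1103. Every KO library was below both WT libraries of its day. Reads on the remaining exons still count towards Nsd1, so the residual level is not a measure of the protein.

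The libraries held 9309874 to 23921193 counts on genes (median 15721347.5), and the 2 WT libraries of day 2 were the shallowest. A normalized count is a read count divided by the size factor of its library, both recovered from the deposited values. Of the counts between 1 and 20, 72.5% to 77.5% per library were even, and whether both mates of a fragment were counted was not tested. If they were, the counting intervals below, which cover counting error only, are too narrow, and the lower bounds given for folds against a group at 0 are too high.

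Hox clusters are read along the chromosome in the order of body position. Genes of the low paralog groups are activated first and mark the hindbrain and anterior trunk, genes of the high groups follow and mark the caudal trunk, and retinoic acid, Wnt, Fgf and Cdx factors are known activators of this sequence in the primitive streak. In mESCs the clusters are covered by Polycomb marks and are nearly silent, and most Hox proteins bind DNA together with Pbx and Meis partners.

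The promoters of 3 genes whose values stand out below are shown for their sequence: Hoxb1 and Hoxd1, anterior genes among those called lower in KO cells by limma-voom at day 2 and day 4, and Hoxd11, a posterior gene found in KO but not in WT libraries at day 4. Each runs from 250 bases before to 50 after an annotated start, in RefSeq on GRCm38.p6, plus strand, with the composite Pbx-Hox motif TGATNNAT in capitals on either strand.
Hoxb1, chr11:96365508-96365807: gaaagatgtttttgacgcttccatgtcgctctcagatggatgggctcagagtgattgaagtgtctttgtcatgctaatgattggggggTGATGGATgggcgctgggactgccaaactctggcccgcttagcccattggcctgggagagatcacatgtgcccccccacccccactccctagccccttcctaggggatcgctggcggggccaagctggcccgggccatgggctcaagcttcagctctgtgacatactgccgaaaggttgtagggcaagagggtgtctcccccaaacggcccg
Hoxd1, chr2:74762730-74763029: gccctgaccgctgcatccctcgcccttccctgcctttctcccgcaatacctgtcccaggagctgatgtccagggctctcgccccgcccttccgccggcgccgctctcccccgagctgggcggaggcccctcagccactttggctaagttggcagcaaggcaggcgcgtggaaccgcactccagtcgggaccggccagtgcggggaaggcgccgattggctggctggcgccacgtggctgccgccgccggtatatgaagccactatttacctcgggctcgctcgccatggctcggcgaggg
Hoxd11, chr2:74682073-74682372: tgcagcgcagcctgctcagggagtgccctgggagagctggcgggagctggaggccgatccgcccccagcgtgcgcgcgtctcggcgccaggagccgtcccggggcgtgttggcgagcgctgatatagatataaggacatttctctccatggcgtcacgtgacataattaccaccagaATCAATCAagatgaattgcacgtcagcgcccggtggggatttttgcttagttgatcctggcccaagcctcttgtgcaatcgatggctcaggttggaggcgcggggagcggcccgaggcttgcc
The motif began at position -162 from the start in Hoxb1 and at -73 in Hoxd11, and these letters were not in the window of Hoxd1. Hoxd11 has a second promoter in the table, at chr2:74679308-74679607, and its window did not hold them either. The RefSeq table held 19 promoters of 17 members, and 3 of them (15.8%), the third at -11 in Hoxb8, had the motif, against 8.85% of all 32851 promoters. Among the same 19 promoters, the retinoid receptor half-site AGGTCA was in 5 (26.3%, against 16.3% of all), the Cdx motif TTTATG in 3 (15.8%, against 11.9%) and TATAAA in 3 (15.8%, against 13.6%). Letter matches are not binding sites, and these shares of few promoters carry no test.

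Undifferentiated WT cells held few Hox reads. Summed over the 32 members, they had 302 ± 20.7 normalized counts at day 0 (SD, n = 2), 217 ± 15.8 at day 2 and 826 ± 55.7 at day 4. In KO cells the sums were 292 ± 34.7 (SD, n = 4), 71.6 ± 19.8 and 386 ± 130. The sums of the 2 genotypes overlapped at day 0, whereas at days 2 and 4 every KO library lay below both WT libraries. A fall in reads of a bulk sample cannot tell fewer expressing cells from less RNA per cell.

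**Figure D1:**
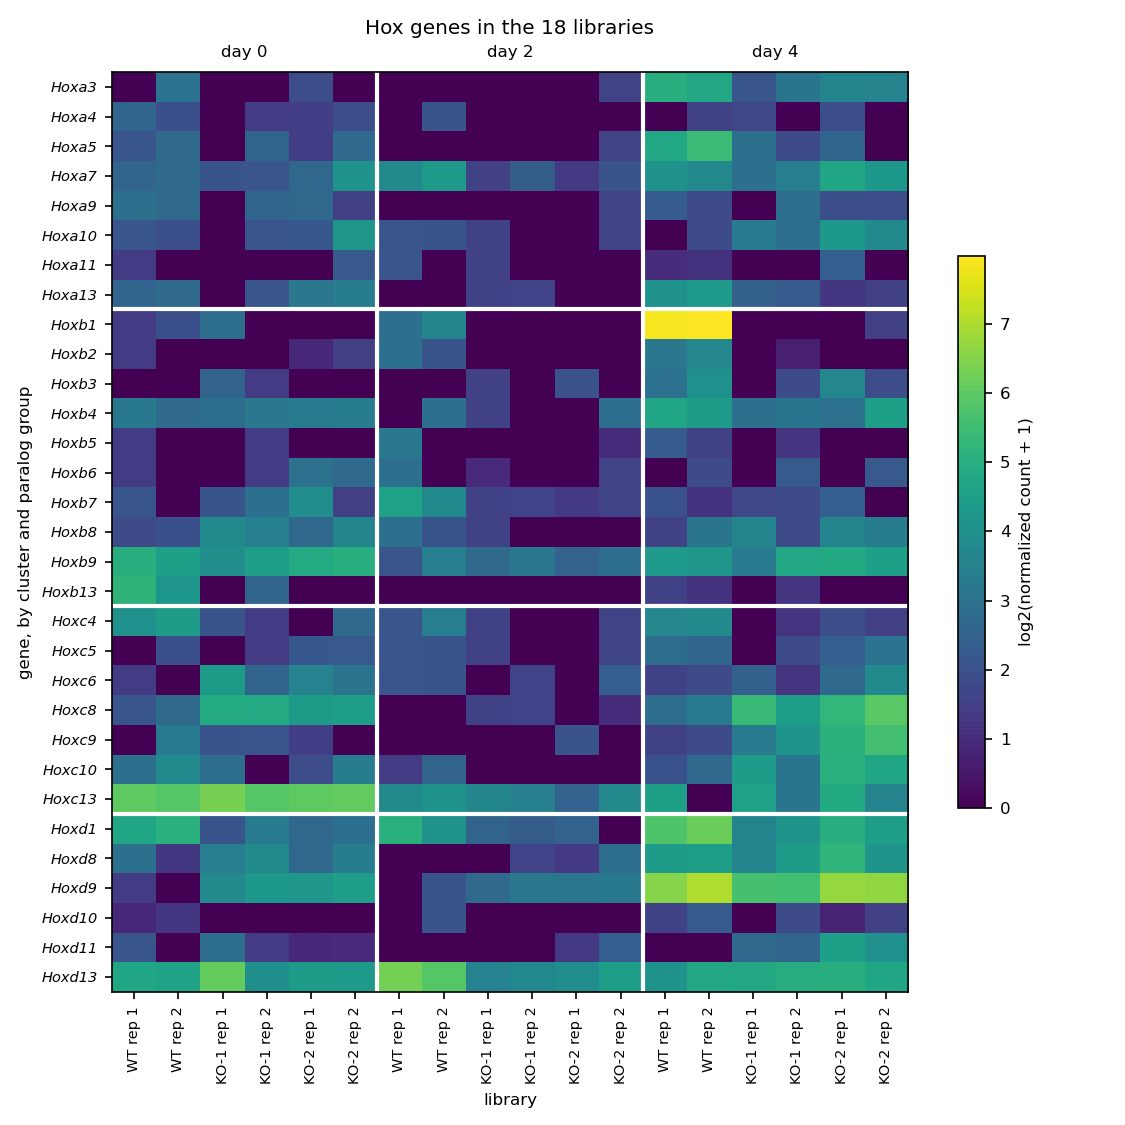
Log2 of normalized count plus 1 for 31 Hox genes (rows, by cluster and paralog group) in the 18 libraries (columns, by day and line). Hoxb1 is brightest in the 2 WT libraries of day 4 and Hoxc8 to Hoxc10 are brighter in the KO libraries of day 4.

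In the map of the Hox genes most positions hold a few reads or none. A group mean of 10 normalized counts was reached by 7 members in WT and 7 in KO cells at day 0, by 6 and 1 at day 2, and by 16 and 14 at day 4. Per kb of exon, the scale on which genes can be compared, Hoxc13, a posterior gene known for its part in hair and skin, led at day 0 with 24.6 ± 1.78 normalized counts per kb in WT (SD, n = 2) and 27.2 ± 3.93 in KO cells (SD, n = 4). At day 4 the members high in WT cells included Hoxb1 (104 ± 6.12), Hoxd9 (52.4 ± 12.8), Hoxd1 (33.8 ± 6.46) and Hoxa5 (18.4 ± 6.32). Hoxb1 stood above the other 3 by more than their spread, and Hoxd9 and Hoxd1 differed by less than the sum of their SDs. In KO cells the order was Hoxd9 (35.1 ± 14.6), Hoxc8 (14.3 ± 5.79), Hoxd13 (11.6 ± 1.25), Hoxc10 (11.3 ± 5.56), Hoxc9 (11.1 ± 7.13) and Hoxd1 (10.9 ± 4.77). From Hoxc8 on, neighbours in this order differed by less than the sum of their SDs.

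Tests were made on 2 scales. The deposited values are log2 variance-stabilized values with a floor near 8.36 that stands for a count of 0, and differences between low counts are compressed on them. The main test was limma on these values, and limma-voom on the recovered counts is given beside it. In both, a gene was called at a Benjamini-Hochberg adjusted p under 0.01 over all 20703 genes and an absolute log2 fold change over 0.58. Where a group is at 0 counts, a limma-voom estimate, and a median over such estimates, depends on the small prior count that the fit adds. At Hoxb1 of day 4, for example, group means of 243 and 0.456 normalized counts stand for a difference of -1.18 on the deposited log2 scale, where a gene of low counts that limma did not call may still differ several-fold in counts.

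The first question was how the Hox genes of WT cells changed as LIF and feeders were withdrawn. Between day 0 and day 2 limma called 0 of the 32 (14 had an unadjusted p under 0.05, 10 of them lower), against 6.68% of all genes in either direction. Limma-voom called 1, against 19.5% of all genes. This was Hoxb13, the last gene of the Hoxb cluster, which had 35.2 and 17.3 normalized counts in the WT libraries of day 0 and 0 in both of day 2 (log2 fold change -5.07 ± 0.98 (SE), adjusted p = 4.38e-04, limma-voom).

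Between day 2 and day 4 Hoxb1 and Hoxd9 were among the genes that rose in WT cells. Limma called 3 members, all higher, against 8.76% of all genes in either direction, and limma-voom called 8, of which 7 were higher, against 24.1%. Hoxb1, which marks the fourth segment of the hindbrain and the posterior streak, had 6.52 and 11.3 normalized counts at day 2 and 232 and 253 at day 4 (limma log2 fold change 0.97 ± 0.06 (SE), adjusted p = 5.60e-11). Hoxd9, a posterior gene known from limb and lumbar patterning, went from 0 and 3.24 to 92.6 and 131 (limma log2 fold change 0.76 ± 0.08 (SE), adjusted p = 1.16e-07). In both genes the day 4 libraries were above both day 2 libraries.

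Limma-voom added Hoxa3, Hoxa5, Hoxa13 and Hoxd8, each at 0 in both WT libraries of day 2. At day 4 Hoxa3, needed for the thymus and parathyroid, had 32.2 and 26.5 normalized counts. Hoxa5, needed for the lung and cervical vertebrae, had 26.2 and 42.9. Hoxa13, a gene of the digits and hindgut, had 16.1 and 18.9, and Hoxd8 had 20.1 and 21.5. These genes thus came from all 3 positional classes. Hoxd13, another digit and hindgut gene, was the single member called lower, from 78.2 and 58.3 to 16.1 and 26.5 (log2 fold change -1.63 ± 0.44 (SE), adjusted p = 0.00523, limma-voom). On the limma-voom scale the median change was 3.20 over the 9 anterior members, -0.01 over the 10 central ones and 0.87 over the 13 posterior ones, and -0.17 over all genes.

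**Figure D2:**
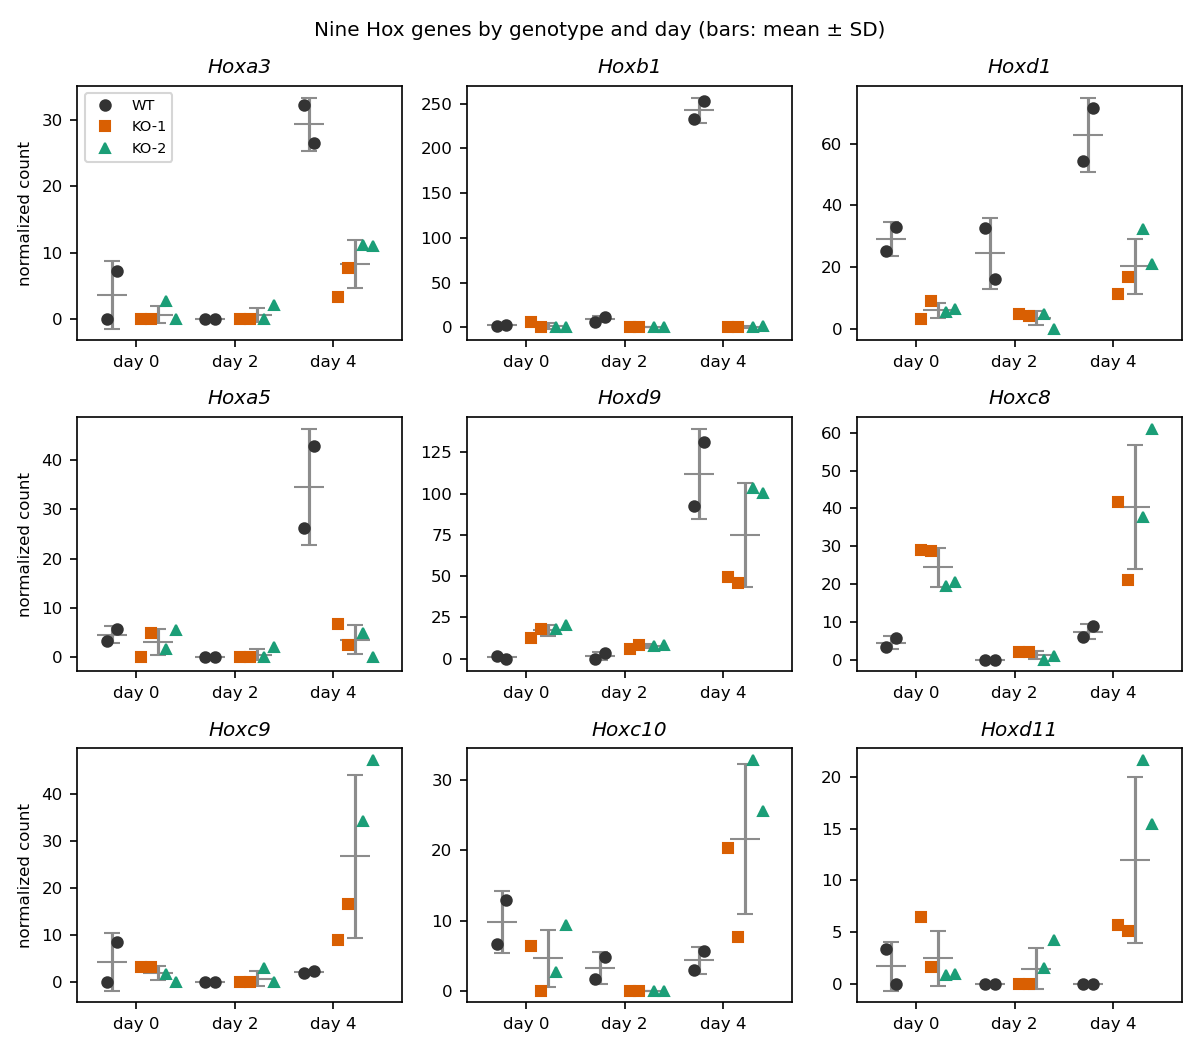
Normalized counts of 9 Hox genes at day 0, 2 and 4, one point per library (circles WT, squares KO-1, triangles KO-2), with horizontal ticks and bars for the mean ± SD of WT (n = 2) and of KO (n = 4). At day 4 Hoxb1, Hoxa3, Hoxd1 and Hoxa5 are higher in WT, Hoxd9 overlaps, and Hoxc8, Hoxc9, Hoxc10 and Hoxd11 are higher in every KO library.

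At day 4, KO cells had lower levels than WT cells in several anterior Hox genes. Limma called 2 of the 32 lower and 0 higher, against 3.91% and 3.67% of all genes (9 lower and 5 higher at an unadjusted p under 0.05). Limma-voom called 8 lower (25%) and 2 higher (6.25%), against 13% and 10.9% of all genes. In 9 members (28.1%) the highest KO value was under the lowest WT value, which held for 25.9% of all genes, and in 5 (15.6%) the lowest KO value was over the highest WT value, against 23.9%. The members without overlap on the low side were thus near the share of all genes. By limma, 2 called lower and 0 called higher are too few to set apart from it. By limma-voom the share called lower was above that of all genes and the share called higher below it. Members without overlap on the high side were also a smaller share than among all genes. None of these differences between shares was tested. Of the 9 on the low side 6 were anterior, and of the 5 on the high side 4 were posterior.

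Hoxb1 was the member that differed most. Its counts were 231 and 400 in the WT libraries of day 4 and 0, 0, 0 and 2 in the 4 KO libraries, so the groups were far apart. Limma gave log2 fold change -1.18 ± 0.05 (SE), adjusted p = 1.95e-13. Because 3 KO libraries held no read, the size is better read from the counts: KO over WT was 0.00164 (exact 95% interval 0.000199 to 0.00596). Hoxd1, the first gene of the Hoxd cluster, had 54.3 and 71.3 in WT, with 11.3 and 16.7 in KO-1 and 32.2 and 21.0 in KO-2. No KO library reached the lower WT value, and limma-voom gave log2 fold change -1.68 ± 0.35 (SE), adjusted p = 4.96e-04, whereas limma on the deposited scale (-0.27) did not call it.

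Also called lower by limma-voom at day 4 were Hoxb2, Hoxa3, Hoxc4, Hoxa5 and Hoxa13. Hoxa5 had 26.2 and 42.9 normalized counts in WT, with 6.77 and 2.56 in KO-1 and 4.90 and 0 in KO-2, a ratio KO over WT of 0.0938 (95% interval 0.0524 to 0.158). Hoxb2, which acts in the hindbrain beside Hoxb1, had 8 and 19 counts in WT and 1 in all KO libraries together, a ratio of 0.0192 (95% interval 0.000469 to 0.116). Both genes were separated without overlap. The same held for Hoxa3 (32.2 and 26.5 in WT against 3.38 to 11.2 in KO), Hoxc4 (12.1 and 12.6 against 0 to 2.80) and Hoxa13 (16.1 and 18.9 against 1.40 to 4.51). Hoxb5, also on the low side (4.03 and 1.89 against 0 to 1.28), was not called. The libraries were made with a kit that does not mark strand, and 27.3% of the exon bases of Hoxb2 and 27.1% of those of Hoxa3 are shared with annotated transcripts, mostly antisense, whose reads cannot be told apart from theirs.

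The 2 members called higher by limma-voom were Hoxd11 and Hoxc8. Hoxd11, which patterns the forearm and kidney, was at 0 counts in WT cells, and the KO libraries held 5, 8, 31 and 17. With a floor of 3 counts over the WT group, it was at least 10.5-fold higher. Of its exon bases 10.8% are shared with Gm28309 on the same strand. Hoxc8, a gene of the thoracic skeleton and motor neurons, had 6.04 and 8.84 normalized counts in WT, with 41.7 and 21.1 in KO-1 and 37.8 and 61.1 in KO-2 (log2 fold change 2.19 ± 0.56 (SE), adjusted p = 0.00339, limma-voom). Every KO library was above both WT libraries in both genes. Its neighbours Hoxc9 and Hoxc10 had the same arrangement but were not called. Hoxc9 had 2.01 and 2.53 in WT, with 9.02 and 16.7 in KO-1 and 34.3 and 47.4 in KO-2 (log2 fold change 3.13 ± 0.99 (SE), adjusted p = 0.0152, limma-voom). Hoxc10 had 3.02 and 5.68, with 20.3 and 7.69 in KO-1 and 32.9 and 25.5 in KO-2 (log2 fold change 1.97 ± 0.84 (SE), adjusted p = 0.0701), and 8.70% of its exon bases are shared with Hoxc5. Hoxa10, a gene of the lumbar region and uterus, had 0 and 2.53 in WT and 6.41 to 18.2 in KO cells and was not called either (limma-voom adjusted p = 0.0236).

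**Figure D3:**
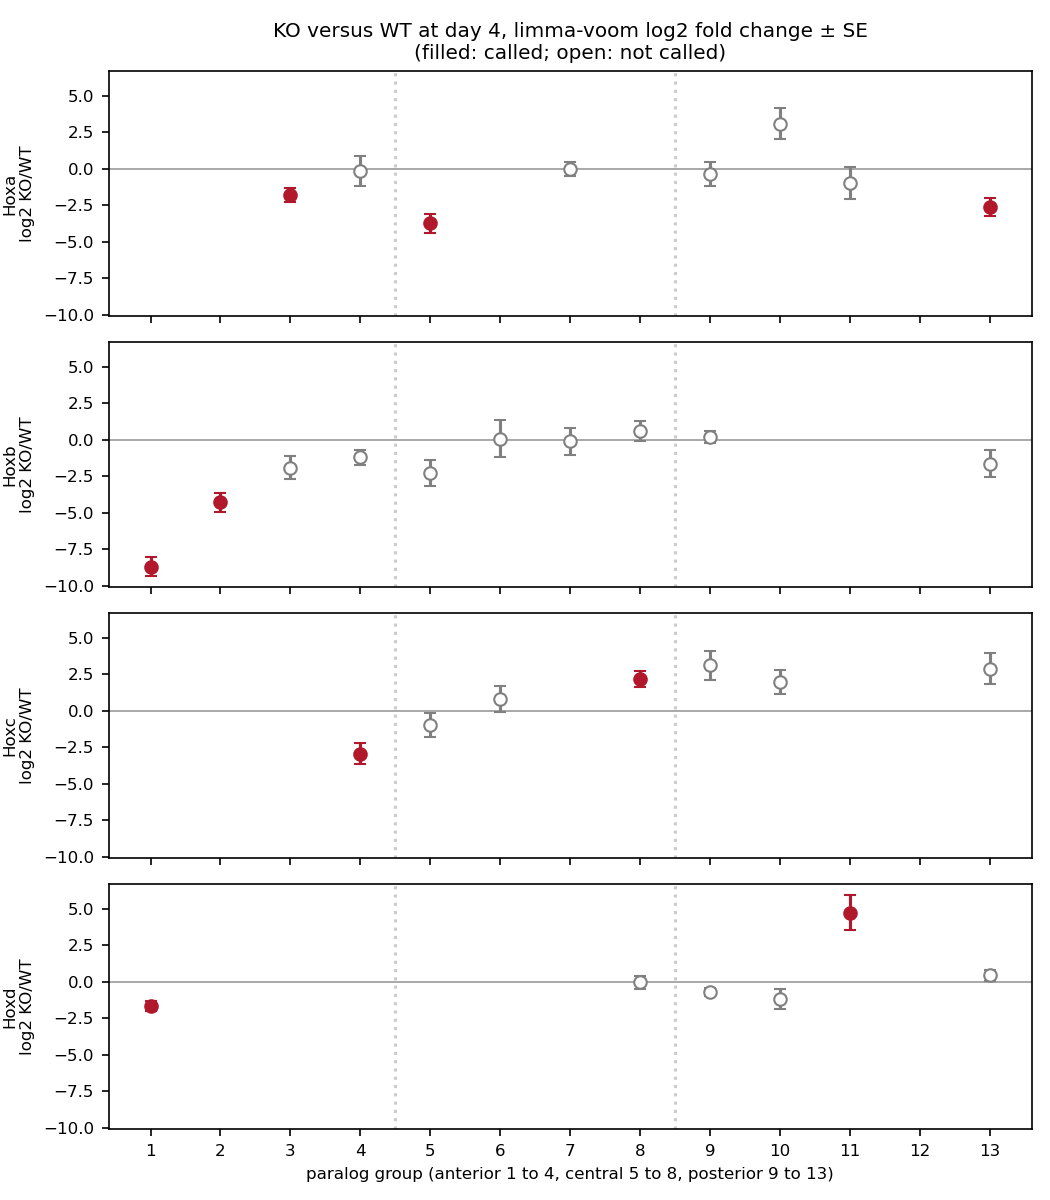
Limma-voom log2 fold change, KO versus WT at day 4, with its SE as bars, for 31 Hox genes, by cluster (panels) and paralog group (horizontal axis, with dotted lines between anterior, central and posterior). Filled points are genes called lower or higher, and values of genes at 0 in a group depend on the prior count of the fit.

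The plot of fold changes by paralog group leaves out 1 member, whereas the counts and medians cover all 32. All 9 anterior members had a negative limma-voom estimate, with a median of -1.90, and 6 of them were called lower. Of the 10 central members 6 were negative, with a median of -0.03, and 1 was called lower and 1 higher. Of the 13 posterior members 6 were negative, with a median of 0.20, and again 1 was called lower and 1 higher. The median of all genes was 0.00. In each class the sign of a member with few reads depends on the prior count of the fit, so the numbers of negative estimates include such signs. By cluster the medians were -0.95 for Hoxa, -1.42 for Hoxb, 1.97 for Hoxc and -0.37 for Hoxd, with 4, 2, 1 and 1 members called lower and 0, 0, 1 and 1 called higher. Members with few reads enter these medians too. In Hoxa, for example, Hoxa11 had the same counts in KO and WT cells as Hoxa4, and the same ratio of 1.04. The cluster medians are thus not read as shifts of whole clusters. The Hoxc members at hand begin at group 4, so that cluster and position are partly the same division.

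Shares of the summed signal per kb were compared by class. In WT cells of day 4, 63.9% ± 2.66 of the Hox signal per kb lay in anterior members (SD, n = 2), 11.6% ± 1.21 in central and 24.5% ± 1.45 in posterior ones. In KO cells the shares were 15.8% ± 1.64 (SD, n = 4), 24.7% ± 2.44 and 59.4% ± 0.832. The ratio of posterior to anterior signal was 0.357 and 0.411 in the WT libraries and 3.50 to 4.28 in the KO libraries, with no overlap. Without Hoxb1, the most abundant member, it was 0.716 ± 0.0855 in WT and 3.81 ± 0.372 in KO cells. Without the 3 most abundant anterior members it was 3.52 ± 0.324 in WT and 12.2 ± 2.02 in KO cells, and the anterior share of WT cells was 16.2% ± 1.45, with 56.8% ± 0.156 posterior. The anterior weight of the WT signal thus rested on 3 genes. With 2 against 4 libraries, an exact permutation test cannot give a p below 0.0667, and none was run on these sums.

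**Figure D4:**
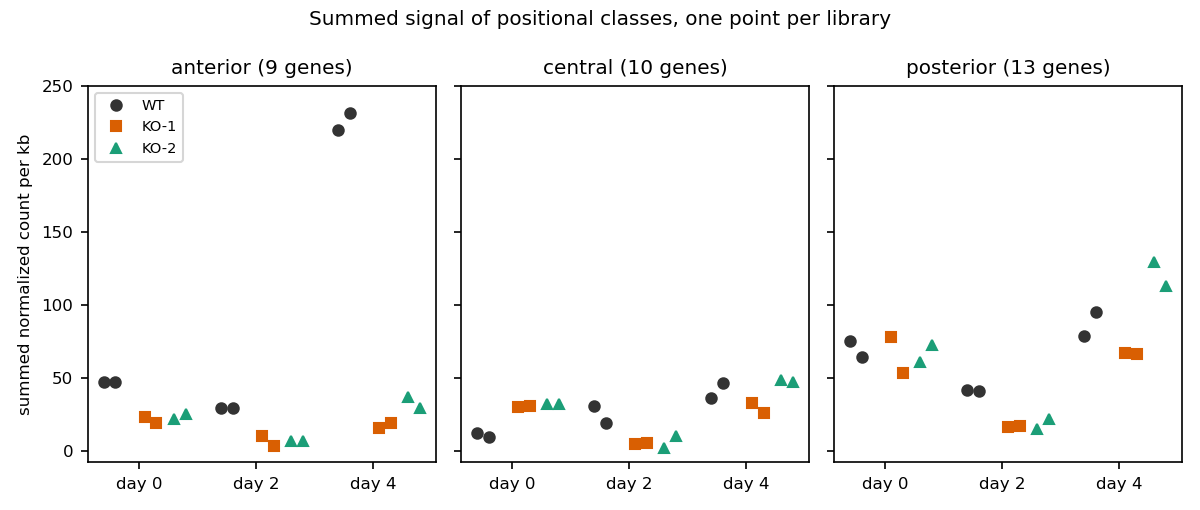
Summed normalized counts per kb of exon of anterior, central and posterior Hox genes, one point per library (circles WT, squares KO-1, triangles KO-2), at day 0, 2 and 4. Anterior sums at day 4 lie near 220 and 231 in WT and between 15.7 and 36.9 in KO cells, and posterior sums of the 2 genotypes overlap.

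In the plot of class sums, the posterior sums of day 4 overlapped, with 93.8 ± 32.1 normalized counts per kb in KO and 86.8 ± 11.9 in WT cells. The clones lay on either side of WT, at 67.1 and 66.1 in KO-1 and 129 and 113 in KO-2, against 78.4 and 95.1. The anterior sums were 25.2 ± 9.76 and 226 ± 8.24 and did not overlap. At day 0 the posterior to anterior ratio was already 2.95 ± 0.294 in KO and 1.47 ± 0.167 in WT cells, without overlap of the libraries. At day 2 it was 3.15 ± 1.66 and 1.40 ± 0.0190, where the KO sums rest on few reads.

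The summed Hox count was lowest in KO cells of day 2, and the comparison with WT cells of that day gave calls in 1 direction. Limma called 0 of 32 (9 lower and 1 higher at an unadjusted p under 0.05), against 2.37% of all genes lower and 4.01% higher. Limma-voom called 6 lower and 0 higher, against 13.6% and 10.3% of all genes. Hoxd13 had 78.2 and 58.3 normalized counts in WT, with 10.7 and 12.2 in KO-1 and 14.04 and 21.1 in KO-2 (log2 fold change -2.24 ± 0.41 (SE), adjusted p = 1.84e-04, limma-voom). Hoxd1 had 32.6 and 16.2 in WT, with 4.88 and 4.07 in KO-1 and 4.68 and 0 in KO-2 (log2 fold change -3.02 ± 0.71 (SE), adjusted p = 0.00190). The groups did not overlap in either gene. Hoxa7 (13.04 and 19.4 against 1.56 to 4.07) and Hoxb7 (22.8 and 12.97 against 1.56 to 2.11), paralogs of the thoracic region, were also called lower. Hoxb1 had 4 and 7 counts in WT and 0 in all KO libraries, at least 12.6-fold lower with a floor of 3 counts over the KO group, and Hoxb2, with 6 counts in WT and 0 in KO, was at least 6.89-fold lower. The median limma-voom change was -1.39 over the 32 members and -0.14 over all genes, and 25 of the 32 estimates were negative against 11674 of all 20703. Several members, such as Hoxa3, Hoxa5 and Hoxb13, were at 0 counts in both WT libraries of day 2, the shallowest of all. The sign of such an estimate depends on the prior count of the fit and on depth. The median and the count of negative estimates include these members, so neither is read as a fall across the Hox genes.

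At day 0, limma called 0 of 32 (3 lower and 5 higher at an unadjusted p under 0.05), against 0.879% of all genes lower and 1.73% higher. Limma-voom called 3 lower and 0 higher, against 6.86% and 6.43% of all genes. Hoxd1 had 25.2 and 33.1 normalized counts in WT, with 3.21 and 9.005 in KO-1 and 5.32 and 6.54 in KO-2 (log2 fold change -2.13 ± 0.57 (SE), adjusted p = 0.00728, limma-voom). Hoxb13 had 35.2 and 17.3 in WT, with 0 and 4.91 in KO-1 and 0 and 0 in KO-2 (log2 fold change -4.77 ± 0.68 (SE), adjusted p = 2.11e-05). Hoxc4, the first gene of its cluster, had 15.1 and 20.1 and 0 to 5.61 (log2 fold change -3.08 ± 0.72 (SE), adjusted p = 0.00297). In all 3, every KO library was below both WT libraries, and Hoxd1 was the single member called lower by limma-voom at each of the 3 days.

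Hoxd9 and Hoxc8 lay on the other side at day 0 without being called. Hoxd9 had 2 and 0 counts in WT and 8, 22, 20 and 22 in KO libraries, a ratio KO over WT of 16.8 (95% interval 4.49 to 142), with a limma-voom adjusted p of 0.0151. Hoxc8 had 4 and 4 counts against 18, 35, 22 and 22 (adjusted p = 0.0182). In both genes all KO libraries were above both WT libraries. Hoxb8 (2.52 and 2.88 normalized counts in WT, 5.32 to 12.8 in KO) and Hoxc6 (1.68 and 0 and 4.91 to 19.3), both central genes, were arranged alike and not called. Of the 10 central members 8 had a positive limma-voom estimate at day 0, with a median of 1.23, and their summed signal was 9.65 and 12.4 normalized counts per kb in WT and 29.8 to 32.0 in KO libraries. The summed feeder fibroblast markers of day 0, given with the other marker lists, lay on the same side, though single markers such as Pdgfrb did not. The anterior sum lay on the low side already, at 47.1 and 47.4 in WT and 19.2 to 25.3 in KO libraries. At day 4 the 2 genotypes overlapped in Hoxd9, with 92.6 and 131 normalized counts in WT and 49.6 and 46.1 in KO-1 and 104 and 100.3 in KO-2.

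Within KO cells 7 Hox genes fell to day 2 and 13 rose to day 4 by limma-voom. From day 0 to day 2 limma called 0 of 32 (10 lower and 0 higher at an unadjusted p under 0.05), against 3.20% of all genes in either direction. Limma-voom called 7, all lower, against 16.3%, among them Hoxb4, Hoxb8, Hoxb9, Hoxc6, Hoxc8 and Hoxc13. Hoxc13 had 57.3 to 80.3 normalized counts at day 0 and 4.68 to 12.6 at day 2 (log2 fold change -2.81 ± 0.54 (SE), adjusted p = 3.15e-04, limma-voom). Hoxb9, a gene of the rib cage, had 14.5 to 31.8 and 4.68 to 8.13. The days did not overlap in either gene. Over the same interval, in which the feeders were withdrawn, the sum of 14 feeder fibroblast markers went from 5628 ± 438 to 890.4 ± 103 normalized counts in KO cells (SD, n = 4) and from 3429 ± 55.5 to 1272 ± 128 in WT cells (SD, n = 2), and its part in the Hox values was not tested. Hoxc13 of WT cells also went from 63.7 and 57.5 to 13.04 and 16.2 but was not called.

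From day 2 to day 4 limma called 0 of 32 in KO cells (17 higher and 0 lower at an unadjusted p under 0.05), against 1.49% of all genes in either direction, while limma-voom called 13, all higher, against 10.3%. They were Hoxa3, Hoxa7 and Hoxa10, Hoxb4, Hoxb8 and Hoxb9, Hoxc8, Hoxc9 and Hoxc10, and Hoxd1, Hoxd8, Hoxd9 and Hoxd11. Hoxd9 had 5.85 to 8.43 normalized counts at day 2 and 46.1 to 104 at day 4 (log2 fold change 3.15 ± 0.48 (SE), adjusted p = 4.16e-05, limma-voom). Hoxc8 had 0 to 2.03 and 21.1 to 61.1 (log2 fold change 4.75 ± 0.66 (SE), adjusted p = 1.60e-05). All KO libraries of day 4 were above all of day 2 in both genes. Hoxb1 was not called. The limma-voom median over this interval was 1.11 for anterior, 1.98 for central and 1.72 for posterior members, and -0.02 for all genes.

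The difference between KO and WT cells at day 4 was itself tested against that at day 0. Limma called 1 member, Hoxb1 (log2 fold change -1.11 ± 0.07 (SE), adjusted p = 3.52e-10), against 6.93% of all genes in either direction, and limma-voom called 4, with Hoxb1, Hoxb2 and Hoxd9 among them, against 14.9%. All 4 were negative. The limma count was 2 when WT day 0 replicate 1, KO-1 day 0 replicate 2, WT day 4 replicate 2 or KO-2 day 4 replicate 1 was left out. For Hoxd1 the difference was -0.04 ± 0.08 (SE) on the deposited scale, with a limma adjusted p of 0.787, and 0.45 ± 0.66 by limma-voom.

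The 2 KO clones were compared at day 4. Limma called 0 of 32 (6 lower in KO-1 and 0 higher at an unadjusted p under 0.05), against 0.251% of all genes in either direction, and limma-voom called 1, against 2.23%. This was Hoxd9, 49.6 and 46.1 normalized counts in KO-1 and 104 and 100.3 in KO-2 (log2 fold change -1.10 ± 0.24 (SE), adjusted p = 0.00431, limma-voom). In 13 of the 32 members both KO-1 libraries were below both KO-2 libraries, against 25.5% of all genes, and in 1 they were above, against 26.1%. Among the 13 were Hoxc9 and Hoxd11, at limma-voom adjusted p = 0.0472 and 0.0447, as well as Hoxa7, Hoxa10, Hoxc10 and Hoxd1, and none of these 6 was called. The KO means of these genes join libraries of 2 clones that did not overlap.

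Genes around the clusters and of the Hox pathway were followed in lists. The shares of all genes called at day 0 and day 4, given above, apply to every list. Of the 9 Pbx, Meis and Pknox cofactors, limma-voom called 3 lower and 0 higher in KO cells at day 4, against 13% and 10.9% of all genes. Limma called 1 lower, against 3.91%, too few to set apart from that share. Meis2 (limma-voom log2 fold change -1.90) and Meis3 (-1.73) were lower, and Meis1 (1.12) was not called. At day 0 limma called Pbx3 higher (0.80 on the deposited scale), and limma-voom called Pbx2 (-0.76), Meis2 (-1.62) and Pknox2 (-1.96) lower. The median of the cofactors at day 4 was 0.14 on the limma-voom scale.

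Of 19 upstream activators limma called 7 lower and 3 higher at day 4, against 3.91% and 3.67% of all genes, with a limma-voom median of -0.64. Wnt3a (limma-voom -7.21), T, the streak factor (-7.14), and Cdx1 (-5.68) were lower, and Cdx1 was called lower at day 0 too (-5.09). Limma-voom also called Rxrg (-3.67) and Aldh1a2, which makes retinoic acid (-1.74), lower at day 0. Among the Cdx genes, picked after their values were seen, Cdx2 had 1077 and 1762 counts in WT and 142, 217, 396 and 264 in KO libraries at day 4, and Cdx4 had 4 and 19 against 262, 429, 633 and 508. Cdx2 was thus called lower and Cdx4 higher by limma at that day. Of the 3 retinoid-degrading enzymes limma called 1 lower, Cyp26a1 (limma-voom -7.05).

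Of 17 genes next to the clusters in the table, of 21 listed, limma called 1 lower and 1 higher at day 4. These counts are near the 3.91% and 3.67% of all genes. The limma-voom median of the neighbours was -0.08. Evx1, the homeobox gene beyond Hoxa13, had 1977 and 3365 counts in WT and 28, 22, 25 and 23 in KO libraries at day 4. Calcoco2, near Hoxb, was higher (limma-voom 3.68) and Skap1, on the other flank, was lower (-3.02, limma-voom only). At day 0 limma-voom called Calcoco2 (1.13) and Snx10 (0.86) higher and Skap1 (-2.81) and Smug1 (-0.63) lower. Of 14 antisense and intergenic transcripts listed, 2 were in the table, and both, Haglr near Hoxd1 (-1.62) and Hotairm1 in the Hoxa cluster (-2.26, on counts of at most 11), were called lower by limma-voom at day 4. Haglr was also called lower at day 0 (-2.98).

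Among regulators of Hox chromatin, limma called 0 of 20 Polycomb genes lower and 5 higher at day 4, with a limma-voom median of 0.29. Of 13 trithorax and MLL genes it called 1 lower and 1 higher, with a median of 0.21. The shares of all genes were 3.91% lower and 3.67% higher. Phf19 (limma-voom 2.39) and Bmi1 (2.12) were higher. Kdm6b, an H3K27 demethylase, was lower (-0.84), Ash2l was higher (0.71) and Kmt2b (0.46) was not called. At day 0 Bmi1 (2.04) and Phc2 (0.64, limma-voom only) were higher and Kdm6b (-1.30) was lower.

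Feeder fibroblasts also express Hox genes, and their markers were present at day 0. Summed over 14 markers, day 0 gave 3468 and 3389 normalized counts in WT and 5343, 5175, 5901 and 6091 in KO libraries, and limma called 3 markers higher and 1 lower in KO cells. Col1a1 was the most abundant, Prrx1 had 68 and 40 counts in WT and 100, 190, 190 and 217 in KO libraries, and Lum was at 0 in all 6. Hoxd9, Hoxc8, Hoxb8, Hoxc6 and the sum of the central Hox genes were, like the summed markers, higher in every KO library of day 0 than in WT, and the markers' part in these values was not tested. At day 4 the sums were 3785 and 3597 in WT and 1386, 1381, 2285 and 2185 in KO cells, with 3 markers called lower and 1 higher. At day 2 they were 1362 and 1182 in WT and 795 to 1008 in KO cells. The markers did not move as one at day 4. Col5a2, the most abundant of the list in KO cells, was the one called higher, with 90 and 106 counts in WT and 657, 1073, 1338 and 987 in KO libraries. Col1a1 (1634 and 2411 counts in WT, 250 to 1024 in KO), Pdgfra and Pdgfrb were called lower, Col3a1 (210 and 239, against 105 to 323) was not called, and Prrx1 was at 4 to 14 and Col6a3 at 2 to 6 counts in KO libraries. The part of the markers in the Hox values of day 4 was not tested.

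Other lineage markers differed at day 4 beside the Hox genes. Limma called 9 of 10 primitive streak and mesoderm markers lower in KO cells and 0 higher, 3 of 7 endoderm markers lower, and 1 lower and 2 higher of 7 neural markers in the table. Of 8 pluripotent markers 6 were called higher and 1 lower. Among the neural markers Sox1, which defines early neural cells, was called higher, with 6 and 0 counts in WT and 448, 812, 1007 and 726 in KO libraries, as was Tubb3. Nes, a marker of neural progenitors, was called lower, with 5589 and 8310 counts in WT and 2048, 3374, 1788 and 1463 in KO libraries. The sum of the neural list was 5952 ± 232 normalized counts in WT and 4171 ± 267 in KO cells, whereas per kb of exon it was 1119.8 ± 22.1 in WT and 1339 ± 51.9 in KO cells, so the order of the genotypes depended on the scale. The part of these cell states in the Hox values was not tested.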

How the data were processed

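Poly-A RNA of 18 libraries was prepared with a TruSeq RNA v2 kit, which does not mark strand. The authors trimmed reads with Trim Galore 0.6.7, aligned them to mm39 with STAR 2.7.11a, counted primary, nonduplicated fragments on exons with featureCounts 2.0.6, removed genes with an average count under 1, and deposited log2 values after the variance stabilizing transformation of DESeq2 1.42.0. Inverting it from its floor gave whole counts for 100% of values (tolerance 0.02) and the size factors.

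The main test was limma 3.58.1 (R 4.3.3) with a trended prior variance on the deposited values, with genotype and day as 6 groups and Benjamini-Hochberg adjustment over all genes. The KO group joined the libraries of both clones as separate replicates. Its p-values, SEs and SDs thus do not measure the spread between independent KO clones. Clones were compared in a fit of 9 groups, and limma-voom was run on the recovered counts. Low counts carry wide counting intervals, given at 95% from an exact binomial. Lengths and overlaps came from GENCODE M21 on GRCm38, where 20592 identifiers (99.5%) were found. Neither the labels nor the methods tie equal replicate numbers to one culture or day, and whether replicates were separate cultures was taken from the labels alone. Figures used matplotlib 3.10.9 in Python 3.11.15.

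The members and lists were chosen with earlier results of these data known. Named are mainly Hox genes called in any comparison, the 3 most abundant of each cluster, the 3 list genes with the largest day 4 change in each list, and list genes called at day 0. Alternatives were limma-voom, other thresholds, filters, scalings, class boundaries, a replicate block, thinned counts and each library left out. Steps were tested on simulated data, with 0 of 20503 unchanged genes called by either test. Limma called 0 of 67 genes changed 2-fold, 15 of 67 changed 4-fold and 42 of 66 changed 16-fold. Limma-voom called 25, 55 and 61 of the same genes. A limma count of 0 is thus not read as a lack of change. Results for some genes are not reported here, though sums, medians and counts include them.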

Additional observations from a re-analysis of the deposited data

Results flagged for a closer look

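In 15 of 78 groups of 4 KO libraries (23 Hox genes and 3 class sums at 3 days), 1 library lay far from the other 3 by Dixon's criterion. Its rate of about 1 in 20 by chance holds for normally distributed values and not for counts near 0. The 15 groups are thus not read as an excess. In 10 of the 15 groups the other 3 libraries were at 0, so 1 library with a few reads sufficed. These were Hoxa3 (2.66 normalized counts), Hoxb1 (6.42) and Hoxb13 (4.91) at day 0, Hoxa3 (2.11), Hoxa5 (2.11), Hoxb8 (1.95) and Hoxc9 (3.12) at day 2, and Hoxb1 (1.82), Hoxb13 (1.28) and Hoxb2 (0.641) at day 4.

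The remaining groups held more reads. At day 0 Hoxd13 was at 67.5 normalized counts and Hoxd11 at 6.42 in KO-1 replicate 1, and Hoxa7 at 15.9 in KO-2 replicate 2. Hoxd1 was at 0 in KO-2 replicate 2 of day 2, and Hoxb4 at 21.9 in KO-2 replicate 2 of day 4.

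The difference between KO and WT cells changed from day 0 to day 4 at an adjusted p under 0.01 in limma, with no fold threshold, in several members. The number of them is given below. Among them it was lower at day 4 for Hoxb1 (-1.11 on the deposited log2 scale), Hoxd9 (-0.43) and Hoxb2 (-0.23). A further 3 genes had all KO libraries on one side of WT at one day and on the other side at another, a difference that was not tested. Hoxa10 (KO mean 11.6 normalized counts at day 4) and Hoxc10 (21.6) were above WT at day 4 and below it at day 2. Hoxb8 (9.80 at day 0) was above WT at day 0 and below it at day 2.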

How the results depend on the processing

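The deposited scale compresses low counts, and the number of Hox genes called depended on scale and threshold. At day 0, 2 and 4 limma called 0, 0 and 2 for KO versus WT, limma-voom 3, 6 and 10, an adjusted p under 0.05 with no fold threshold 6, 8 and 13, an adjusted p under 0.01 with no fold threshold 5, 6 and 11, and limma-voom on counts thinned to 9309874 per library 4, 5 and 8. In the same order, WT cells gave 0, 1, 9, 5 and 1 from day 0 to 2 and 3, 8, 13, 13 and 11 from day 2 to 4, and KO cells 0, 7, 9, 6 and 7 and then 0, 13, 13, 12 and 11. The change of the KO effect gave 1, 4, 8, 5 and 3. For the clones it was 0, 1, 2 and 1, without thinning. The unthresholded p of 0.01, the thinning and the omission of Hoxb1 were chosen after seeing the data. In WT cells of day 4 the anterior and central shares were 59.9% and 15.7% with groups 1 to 3 as anterior, and without Hoxb1 the shares were 48.8%, 16.5% and 34.7%. With each library left out, the counts of genes stayed at 0, 2 and 3 and the change of the KO effect gave 1 to 2, while the anterior, central and posterior shares ran from 62.0% to 65.8%, 10.8% to 12.5% and 23.5% to 25.5%. Of 522 values of 19 single-gene results under alternatives, 65 newly passed the threshold and 0 changed direction, and since limma called 2 of the 19, the alternatives could hardly show a lost call. Deviations between equal replicate numbers had a mean r of -0.0477 over 36 pairs of groups (-0.613 to 0.636). These pairs also join groups of different days, so the mean cannot exclude a pairing within a day. A replicate block common to all days gave the same counts, 0, 0 and 2 for KO versus WT.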
